A study of Bos taurus with 129 samples.

Results

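The neutrophil alarmins and chemotaxis genes chosen by symbol were S100A8, S100A9, S100A12, CXCR1, CXCR2, CXCL8, CSF3R, FPR1 and C5AR1. Of these 9 genes, 7 were matched by symbol to a row of the deposited count table of 32395 genes, and all 7 passed the filter on low counts that left 17853 genes. CSF3R and FPR1 were not analysed here. The genes were named by function, with earlier results of these data known, and the selection rule itself used no expression value. Their levels were followed over all whole blood libraries (59 healthy and 70 BRD) by day, disease label and treatment.

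Neutrophils carry S100A8, S100A9 and S100A12 in their cytosol in large amounts. When they are released at a site of injury or infection these proteins act as alarmins, that is, as danger signals sensed by receptors such as TLR4 and AGER on other cells. CXCL8 (interleukin 8) is the chemokine that draws neutrophils out of the blood, and CXCR1 and CXCR2 are its receptors. C5AR1 is the receptor for the complement fragment C5a, another strong neutrophil attractant. Monocytes also transcribe the S100 alarmins, CXCL8 and C5AR1, so whole blood RNA holds transcripts of these genes from more than 1 cell type.

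The libraries came from 26 commercial crossbred beef steers of unknown health history, sampled 5 times (days 0, 13, 28, 45 and 60) after long-haul transport. All of them received a viral vaccine and doramectin on day 0, and a repeat vaccination between the samplings of days 13 and 28. Healthy cattle (12 animals, 59 libraries) were never diagnosed with or treated for clinical bovine respiratory disease (BRD), and BRD cattle (14 animals, 70 libraries) carried the disease label, for which the sources used here give no date of diagnosis. INR feed held copper, cobalt, manganese and zinc as sulfates (4 healthy and 7 BRD animals), and AAC feed held the same metals as amino acid complexes (4 and 4). COMBO animals had the AAC feed plus an oral drench of trace minerals, dosed ahead of shipment, on day 0 and with any treatment for illness (4 and 3). The authors left out 1 library, from animal 48 (healthy, AAC) on day 13. The age of the steers was not given in the sources used here. The COMBO healthy animals were labelled with pen 5 and the COMBO BRD animals with pen 6, so within COMBO the disease label and the pen cannot be told apart. INR pen 7 held BRD animals alone, and pens 2, 3, 4 and 8 held both labels. The paper reports that the steers shared a single paddock on arrival and, once penned, were moved between pens in the course of the study. The labels give the same pen for an animal on all days, so they do not describe its housing over the study.

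Total counts ranged from 31613545 to 61692136 per library (median 44268685), so the 7 genes were read with 46 counts or more in every library. In bulk blood, fewer cells of a type and less RNA per cell cannot be told apart. Markers of neutrophils, monocytes, T cells, B cells, NK cells, platelets and red cell precursors were all detected, although 2 neutrophil markers known from human blood were near 0 here (CMTM2 at 0 in nearly all libraries and KCNJ15 at 0 in 73 of them).

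Levels are counts relative to the library total scaled by the TMM method (CPM), and they are compared within a gene and not between genes, since they are not divided by transcript length. S100A12 ranged from 185.7 to 4413 CPM over all libraries with a median of 624.7, S100A9 from 91.7 to 3085 with a median of 339.8, and S100A8 from 41.04 to 1061 with a median of 143.9. CXCR1 had the narrowest range of the 7 genes, from 42.95 to 260.1 CPM (median 109.5), which is a 6.06-fold span. CXCR2 had the widest, from 1.34 to 348.9 CPM (median 66.01), a 260-fold span. C5AR1 ranged from 4.48 to 318.7 CPM (median 112.3), and CXCL8 was read at 1.08 to 39.28 CPM (median 10.99).

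The 3 S100 alarmins had their highest median on day 0. The median S100A12 level over all cattle was 904.5 CPM on day 0, and it was 645.1, 571.4, 591.8 and 513.2 CPM on days 13, 28, 45 and 60. For S100A9 the medians over these days were 450.2, 351.8, 303.7, 311.1 and 272.2 CPM, and for S100A8 they were 210.6, 134.3, 132.9, 139.7 and 124.6 CPM. The order of the 4 later days differed between the genes, and the levels of those days overlapped widely, while on day 0 the highest libraries stood above those of any later day. S100A12 was lower on day 60 than on day 0 in 24 of 26 animals, S100A9 in 24 and S100A8 in 23.

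**Figure D1:**
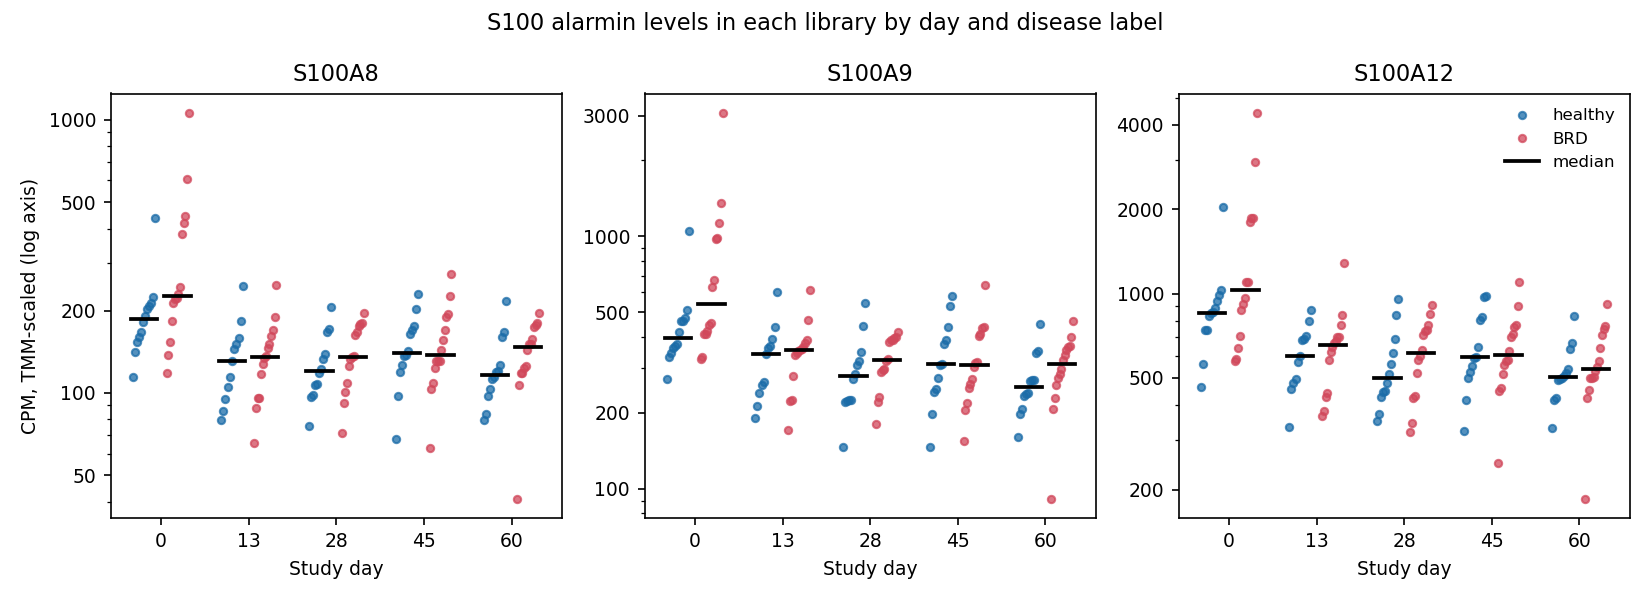
CPM of S100A8, S100A9 and S100A12 (log axis) against study day, with 1 point per library, healthy cattle in blue and BRD cattle in red, points set out in order of level within each group, and a black bar at each group's median. On day 0 the S100A12 levels reach 4413 CPM in BRD and 2031 CPM in healthy cattle, and on days 13 to 60 no library is above 1289 CPM.

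In BRD cattle all 3 alarmins fell from day 0 on each of the 4 later days. S100A12 ran from 572.7 to 4413 CPM on day 0 (median 1032, n = 14) and from 366.8 to 1289 CPM on day 13 (median 655.6, n = 14). The fitted within-animal change on day 13 was -1.06 on the log2 scale (SE 0.20, a 2.09-fold fall, adjusted p = 4.56e-05 by edgeR's quasi-likelihood test with animal as a block). On day 60 the BRD animals held 185.7 to 916.6 CPM of S100A12 (median 537.3), and the change was -1.17 (SE 0.20, 2.25-fold, adjusted p = 6.96e-06). S100A8 fell by 1.17 on the log2 scale on day 13 (SE 0.21, adjusted p = 2.66e-05) and S100A9 by 1.08 (SE 0.22, adjusted p = 0.000205). Over the 3 genes and 4 days the falls lay between 1.97-fold and 2.26-fold, and each of these 12 calls held in 26 of 26 fits that left out 1 animal. S100A9 was lower on day 28 than on day 0 in 14 of 14 BRD animals.

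In healthy cattle the alarmins passed on fewer days, and a difference in change between the groups was not shown. S100A12 ran from 463.3 to 2031 CPM on day 0 (median 854.2, n = 12), from 350.8 to 958.6 CPM on day 28 (median 499.8, n = 12) and from 331.7 to 833.3 CPM on day 60 (median 502.5, n = 12). The groups of libraries overlapped, yet within animals all 3 alarmins were lower on day 60 than on day 0 in 12 of 12 healthy cattle. S100A12 fell 1.61-fold on day 28 (log2 -0.69, SE 0.20, adjusted p = 0.0119) and 1.70-fold on day 60 (log2 -0.76, SE 0.20, adjusted p = 0.00766). S100A8 and S100A9 fell on the same 2 days by 1.503-fold to 1.67-fold (adjusted p 0.0227 to 0.0600). On day 13 only S100A12 passed the threshold of 0.10 (log2 -0.54, SE 0.21, adjusted p = 0.0973), and on day 45 none of the 3 did (log2 -0.41 to -0.48, adjusted p 0.147 to 0.290). Without animal 6, whose day 0 library was the highest of the healthy cattle, the healthy calls of S100A8 and S100A9 on day 28 and of S100A12 on day 13 were lost (adjusted p 0.175, 0.212 and 0.283), and over all 26 such fits they were kept in 25, 21 and 13.

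Counted over the 7 genes, 9 of 28 gene and day combinations passed in healthy cattle and 18 of 28 in BRD cattle, all 27 lower than on day 0. In healthy cattle 1, 4, 1 and 3 of the 7 genes were lower on days 13, 28, 45 and 60, when 4.97%, 10.22%, 4.88% and 6.55% of the 17853 genes were. In BRD cattle 4, 5, 4 and 5 of the 7 were lower on these days, against 9.15%, 11.14%, 11.49% and 10.36% of all genes. The 4 later days share the day 0 libraries, so they do not count as separate evidence. The change was not shown to differ between BRD and healthy cattle for any gene on any day. That difference of changes passed in 0 of 28 combinations (0%, 0%, 0% and 0% of all genes on days 13, 28, 45 and 60). Its lowest unadjusted p in the same edgeR fit was 0.0277, for S100A9 on day 45, where BRD cattle fell further by 0.71 on the log2 scale (95% interval 0.08 to 1.34, adjusted p = 1).

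**Figure D2:**
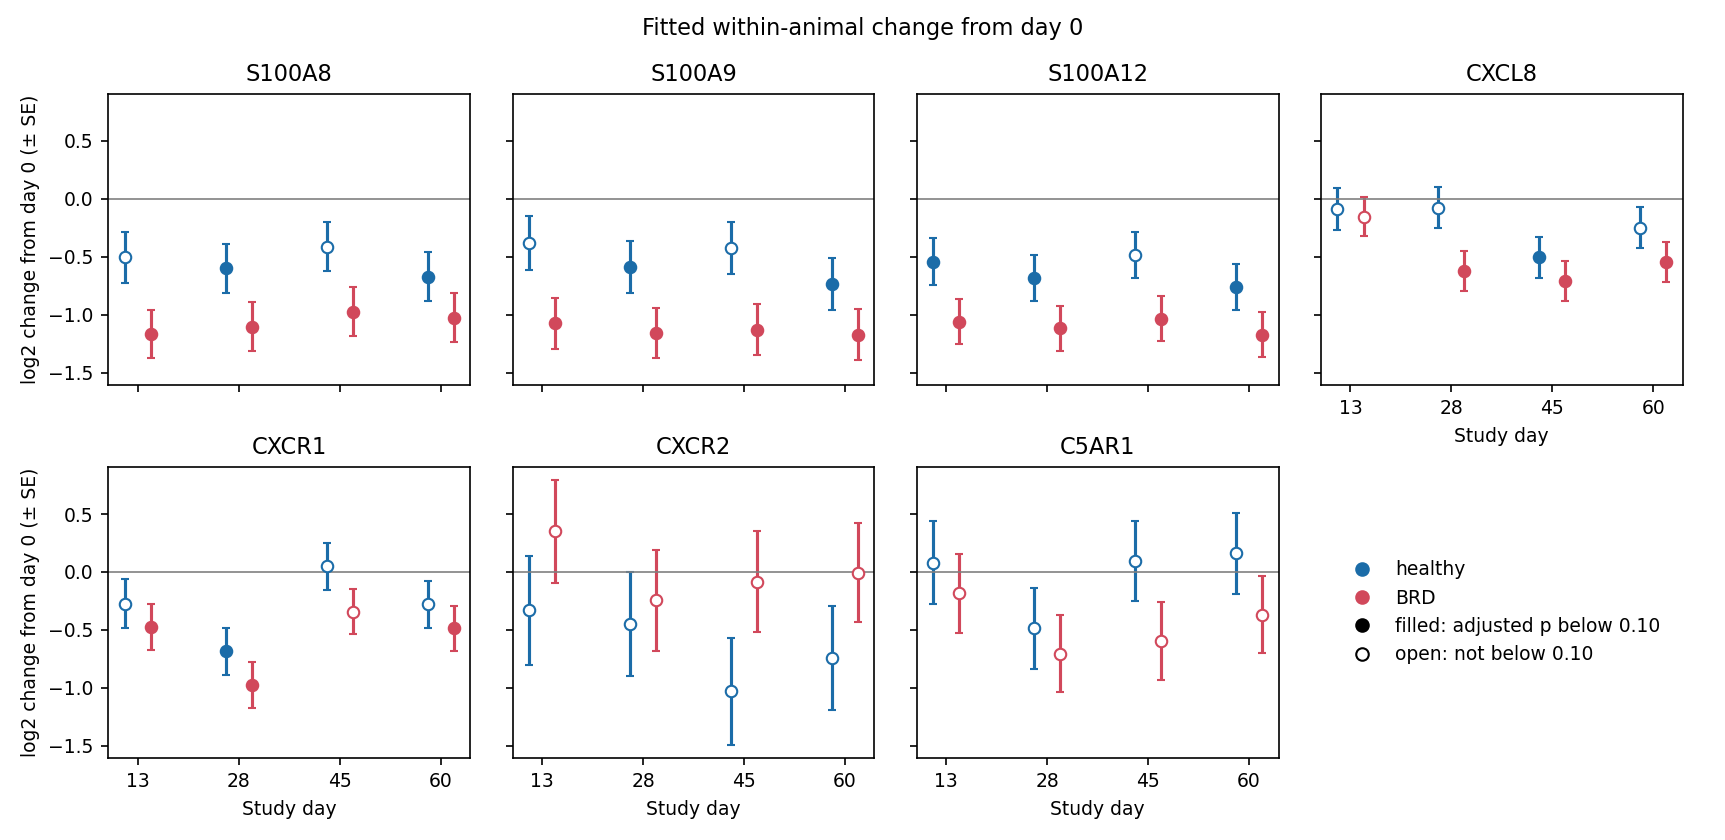
Fitted within-animal log2 change from day 0 (points, with bars of 1 SE) against study day for the 7 genes, healthy cattle in blue and BRD cattle in red, filled where the adjusted p is below 0.10. The 3 alarmins sit near -1 in BRD cattle on all 4 days, CXCR1 is lowest on day 28 in both groups, and no point of CXCR2 or C5AR1 is filled.

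The day 0 level of the alarmins was set apart by a few animals. The summed S100A8, S100A9 and S100A12 level was highest in BRD INR animal 43 (8559 CPM), BRD AAC animal 21 (4901 CPM) and healthy COMBO animal 6 (3520 CPM), all on day 0, and 8 of the 10 highest libraries were from day 0. S100A12 in animal 43 was 4413, 577.3, 320.3, 248.7 and 185.7 CPM over the 5 days, so the same animal gave the highest and the lowest library of the series. In animal 21 the S100A12 levels were 2937, 1289, 907.1, 905.3 and 750.1 CPM. In animal 6 they were 2031, 569.4, 614.8, 976.0 and 833.3 CPM. The summed neutrophil markers ranked 20th of 26 in animal 43 on day 0 (1350 CPM, median of the day 1507), but 3rd in animal 21 and 1st in animal 6. This sum is weighted by level, with MMP25 alone at a median of 818.8 CPM over all libraries, so it does not count neutrophils. The monocyte markers ranked 6th in animal 43, 2nd in animal 21 and 1st in animal 6.

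Across libraries the 3 alarmins moved almost as 1 gene. Spearman's rho over all libraries, which share animals, was 0.935 between S100A8 and S100A9, 0.933 between S100A8 and S100A12, and 0.932 between S100A9 and S100A12. The ratio of S100A9 to S100A8 stayed between 1.76 and 3.11 (median 2.26) while each of the 3 genes spanned 23.8-fold or more. With CXCR1 the rho of the alarmins was 0.4927 to 0.550, and with CXCL8 it was 0.063 to 0.088. By rank correlation over all libraries, the genes nearest to S100A8 and S100A9 outside the 9 chosen were NCLN (rho 0.800 and 0.862), then PKM (0.798) and LIMK2 (0.797). S100A12 was nearest to TYROBP, a signalling adaptor of myeloid and NK cells (rho 0.848), and NCLN (0.842).

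The comparison of BRD with healthy cattle asked whether these genes differed between animals that did and did not receive the disease label. None of the 7 genes passed the threshold on any day, with 0 of 35 combinations called (0.0056%, 0.0056%, 0%, 0% and 0% of all genes over the 5 days) and 3 at an unadjusted p below 0.05. These 3 were the alarmins on day 0. On that day the median of S100A12 was 1032 CPM in BRD and 854.2 CPM in healthy cattle, with the ranges overlapping, and the fitted difference was 0.62 on the log2 scale (95% interval 0.15 to 1.09, adjusted p = 0.581 by edgeR between animals). For S100A8 the difference was 0.66 (0.19 to 1.13, adjusted p = 0.497) and for S100A9 it was 0.77 (0.27 to 1.27, adjusted p = 0.405). Without animal 43 the 3 differences were 0.42 to 0.53. From day 13 on, the differences in the alarmins lay between -0.04 and 0.25, with 95% intervals that reached at most 0.71.

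With the labelled pen in place of the treatment in the model, the disease label is compared within pens 2, 3, 4 and 8 alone, and the 3 alarmins then passed on day 0. S100A8 was higher in BRD cattle by 1.15 on the log2 scale (SE 0.28), S100A9 by 1.19 and S100A12 by 1.18 (adjusted p = 0.0438 each), in a fit that called 675 of the 17853 genes on that day against 1 with treatment. Both fits pooled the spread over all days and had no animal term, so the libraries of an animal counted as independent. Pen was not fitted on day 0 alone, so these p values do not rest on the spread of that day. In pen 2 the 2 healthy animals held 888.0 and 1027 CPM of S100A12 and the 2 BRD animals 1799 and 2937 CPM. In pen 8 the healthy animals held 558.8 and 833.8 CPM and the BRD animals 874.6 and 920.9 CPM. Pen 3 had 1 healthy animal at 463.3 CPM and 2 BRD animals at 702.8 and 4413 CPM, and pen 4 had healthy animals at 741.5, 851.3 and 984.5 CPM and 1 BRD animal at 1855 CPM. For S100A12, and likewise for S100A9, each BRD animal in these 4 pens was higher than each healthy one of its own pen, while across pens the labels overlapped. For S100A8 this held in pens 2, 3 and 4, while in pen 8 the lower BRD animal (212.9 CPM) and the higher healthy animal (213.0 CPM) were level. In the COMBO pens the order was the other way, with healthy animals at 738.8 to 2031 CPM in pen 5 and BRD animals at 572.7 to 964.1 CPM in pen 6. The 3 calls were kept without animal 43 (log2 0.86 to 0.87, adjusted p 0.0467 to 0.0626), and S100A8, S100A9 and S100A12 were called in 24, 23 and 24 of 26 fits that left out 1 animal, with an adjusted p of up to 0.130 without animal 10 and 0.123 without animal 21.

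**Figure D3:**
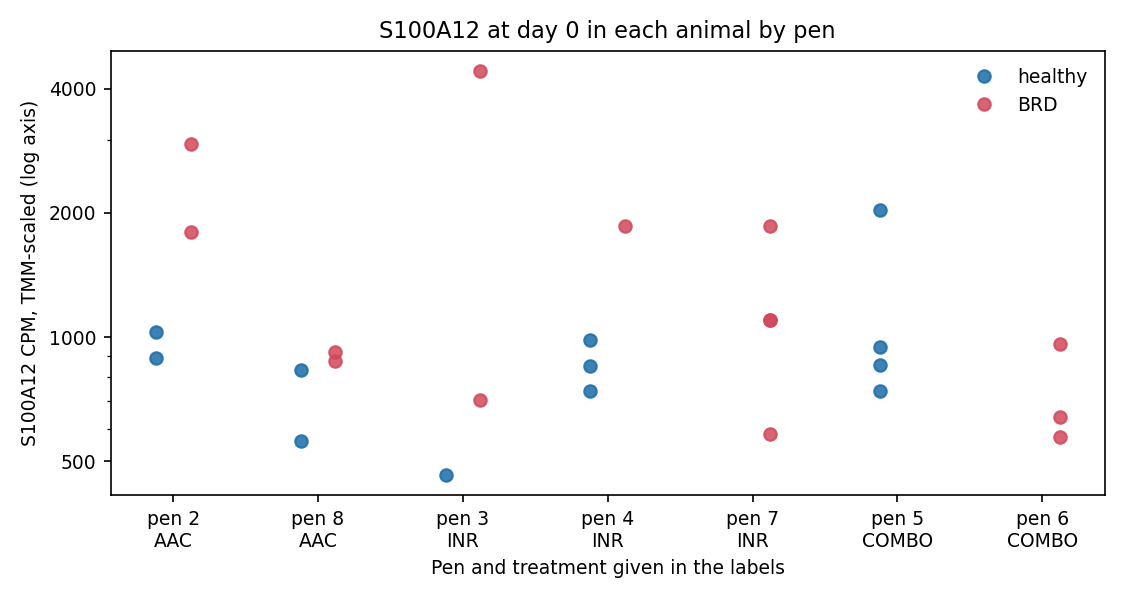
S100A12 CPM on day 0 (log axis) in each of the 26 animals, by the pen and treatment in the labels, healthy cattle in blue and BRD cattle in red. In pens 2, 8, 3 and 4 each BRD animal lies above each healthy animal of its own pen, and pens 5 to 7 hold a single label each.

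The mineral treatments were compared to ask whether these genes differed between INR, AAC and COMBO. Day 0, when the fed supplements began, is among the days tested, and the test does not part mineral form from the COMBO drench. None of the 35 combinations passed (adjusted p from 0.638 up, none at an unadjusted p below 0.05), where 0.0672%, 0.42%, 0.028%, 0.0056% and 0.0056% of all genes did over the 5 days. Nor did a difference between treatments in the change from day 0 pass in any of 28 combinations (adjusted p 0.778 or above), where 0.0112%, 0.0056%, 0% and 0% of all genes did on days 13 to 60. The lowest unadjusted p of the edgeR test over the treatments was 0.101, for S100A8 on day 13. On that day S100A8 ran from 85.6 to 247.5 CPM in AAC (median 158.6, n = 7), from 65.6 to 184.2 CPM in COMBO (median 105.5, n = 7) and from 88.3 to 190.2 CPM in INR (n = 11), so the 3 treatments overlapped.

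CXCL8, the ligand, varied more between animals than between days. Differences between animals held 80.7% of the variance of its log2 level and differences between days 4.36%, whereas for S100A12 these shares were 27.6% and 29.5%. On the measure used for all genes, the share between animals was 79.6% for CXCL8, and 873 of 17853 genes had a higher share (median 43.2%). BRD INR animal 29 held 1.799, 1.08, 1.16, 1.28 and 1.23 CPM over the 5 days. BRD COMBO animal 54 held 37.26, 39.28, 23.8, 24.01 and 28.8 CPM on the same days. The medians of these 2 animals differed 23.4-fold, and their libraries did not overlap. Both animals carried the BRD label, and the healthy animals lay between them.

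**Figure D4:**
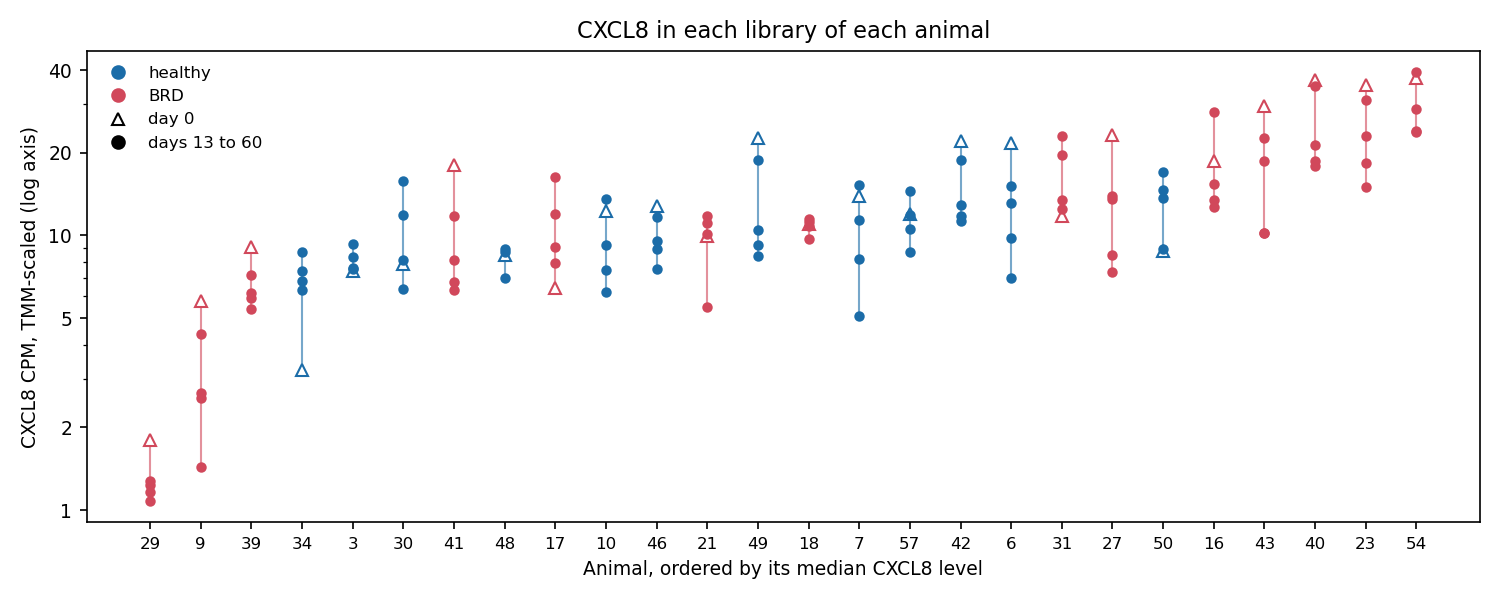
CXCL8 CPM (log axis) in each library of each of the 26 animals, ordered by the median of the animal, healthy cattle in blue and BRD cattle in red, with open triangles for day 0 and filled circles for days 13 to 60. Animal 29 stays at or below 1.799 CPM and animal 54 at or above 23.8 CPM on every day.

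Within animals CXCL8 fell in BRD cattle on the last 3 days. The BRD medians were 14.95, 11.4, 12.25, 10.1 and 12.2 CPM over the 5 days, and the healthy medians were 12.1, 11.8, 10.9, 8.00 and 9.07 CPM. All of these groups overlapped. The fitted changes in BRD cattle were -0.62 on day 28 (SE 0.17, adjusted p = 0.00607), -0.71 on day 45 (SE 0.17, adjusted p = 0.00185) and -0.55 on day 60 (SE 0.17, adjusted p = 0.0211) by the edgeR fit with animal as a block. CXCL8 was lower than on day 0 in 11, 10 and 11 of the 14 BRD animals on these days. In healthy cattle it fell on day 45 alone (log2 -0.51, SE 0.18, adjusted p = 0.0753, lower in 8 of 12), and that call was lost without animal 6 (adjusted p = 0.279) and without animal 49 (adjusted p = 0.270), and was kept in 20 of 26 such fits. With the libraries of an animal treated as independent, none of the 4 CXCL8 calls was kept (adjusted p 0.265 to 0.656).

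CXCR1, which binds CXCL8 with high affinity, was lowest on day 28 in both groups. Its healthy levels ran from 67.2 to 211.1 CPM on day 0 (median 129.7) and from 45.3 to 197.5 CPM on day 28 (median 78.2), and its BRD levels from 42.95 to 254.5 CPM (median 150.9) and from 44.7 to 179.6 CPM (median 78.3). CXCR1 was lower on day 28 than on day 0 in 23 of 26 animals. The fall was 1.61-fold in healthy cattle (log2 -0.68, SE 0.20, adjusted p = 0.0137) and 1.96-fold in BRD cattle (log2 -0.97, SE 0.20, adjusted p = 0.000168). On day 45 the change from day 0 passed in neither group. In healthy cattle CXCR1 was lower in 4 of 12 animals (log2 0.05, SE 0.20), and in BRD cattle it was lower in 11 of 14, with a median of 98.8 CPM against 150.9 CPM on day 0 (log2 -0.34, SE 0.20). The smaller falls of CXCR1 in BRD cattle on days 13 and 60 (log2 -0.47 and -0.49, adjusted p 0.0938 and 0.0866) were lost without animal 43 (adjusted p 0.237 and 0.257) and kept in 14 and 15 of 26 such fits. The genes nearest to CXCR1 over all libraries were SLC45A4 (rho 0.908) and MARCKS (0.903).

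CXCR2, the receptor shared by most neutrophil-attracting chemokines, passed on no day in either group (log2 -1.03 to 0.35, SE 0.43 to 0.47). Its level swung within animals. BRD INR animal 17 held 1.34, 109.12, 46.3, 54.5 and 44.37 CPM of CXCR2 over the 5 days, and healthy COMBO animal 6 held 81.9, 74.3, 193.8, 57.7 and 7.21 CPM. RUFY4 lies next to CXCR2 in the RefSeq gene order of assembly ARS-UCD2.0, with CXCR1 on the other side of CXCR2. In some libraries RUFY4 was high where CXCR2 was low, and their rho over all libraries was -0.188. In animal 6, RUFY4 was at 17.9 CPM on day 28, when CXCR2 was at 193.8 CPM, and at 235.4 CPM on day 60, when CXCR2 was at 7.21 CPM. In BRD INR animal 29, CXCR2 was at 2.81 CPM on day 0 with RUFY4 at 312.0 CPM, and at 66.8 CPM on day 13 with RUFY4 at 48.01 CPM.

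Added together, the CXCR2 and RUFY4 counts followed CXCR1 closely. Spearman's rho with CXCR1 over all libraries was 0.342 for CXCR2, 0.791 for RUFY4 and 0.974 for their sum, and the SD of the log2 ratio to CXCR1 was 1.28 for CXCR2 and 0.13 for the sum. CXCR2 held between 0.893% and 91.5% of this sum (median 39.1%) and less than 10% of it in 14 libraries. The deposited counts were derived from assembled transcripts merged to gene names. How reads were divided between RUFY4, CXCR2 and the adjoining CXCR1 cannot be seen in them, so the CXCR2 level alone is uncertain. CXCR1 is thus not a reference from outside this group of genes. The sum, which was chosen after its values were seen, fell on day 28 in healthy cattle (log2 -0.63, SE 0.20, adjusted p = 0.0213) and in BRD cattle (log2 -0.97, SE 0.20, adjusted p = 0.000154). In BRD cattle it also fell on day 13 (log2 -0.47, adjusted p = 0.0894) and day 60 (log2 -0.58, adjusted p = 0.0319).

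**Figure D5:**
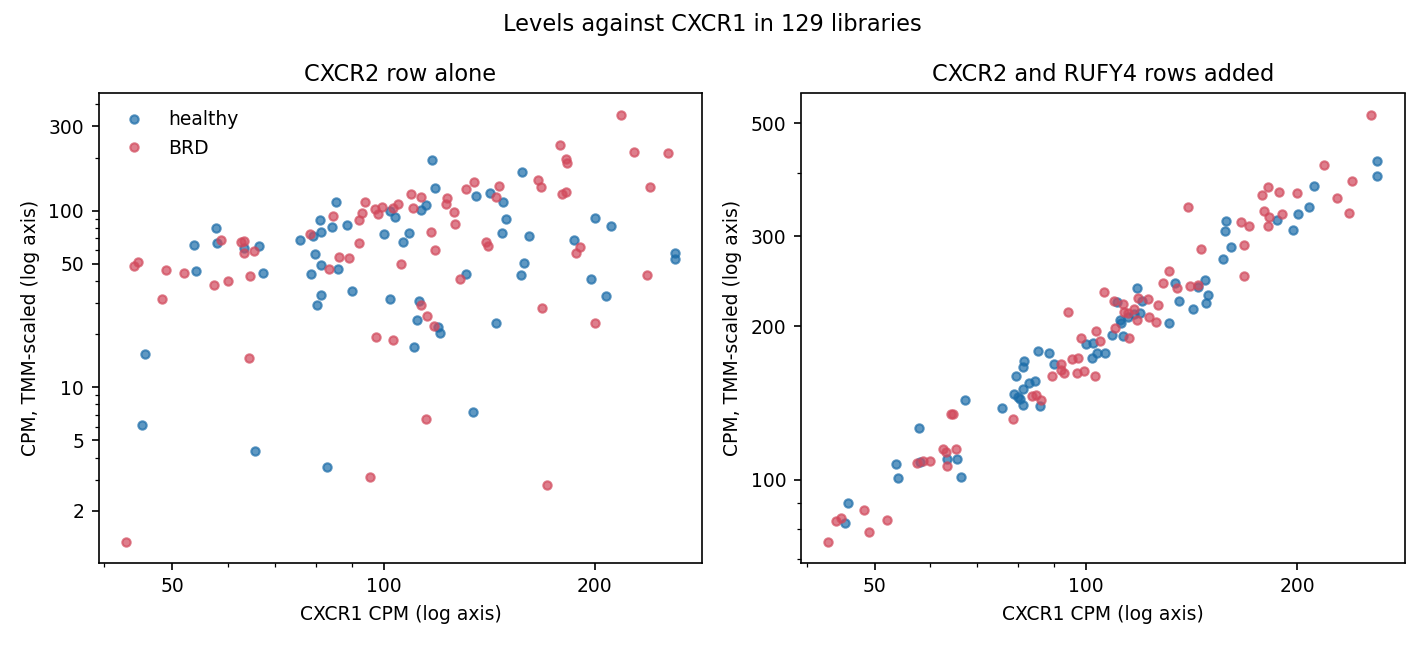
CPM of the CXCR2 row (left) and of the CXCR2 and RUFY4 rows added (right) against CXCR1 CPM, on log axes, with 1 point for each library, healthy cattle in blue and BRD cattle in red. In the left panel CXCR2 scatters down to 1.34 CPM (rho 0.342), and in the right panel the points lie along a line (rho 0.974).

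C5AR1 passed on no day either (log2 -0.70 to 0.16, SE 0.33 to 0.36). On day 28 its BRD levels ran from 16.6 to 150.8 CPM (median 93.96), against 16.02 to 318.7 CPM on day 0 (median 170.5), and the fitted change was -0.70 (adjusted p = 0.154). DHX34, a gene near C5AR1 in the same gene order, was read in the same way, although C5AR2 lies between them. C5AR1 held between 1.67% and 70.6% of the summed counts of both genes (median 55.2%) and under 10% in 7 libraries. Over all libraries the rho between C5AR1 and DHX34 was -0.044, so a trade-off between these 2 genes was not shown. The rho with CXCR1 was 0.426 for C5AR1, 0.628 for DHX34 alone and 0.787 for their sum. The SD of the log2 ratio to CXCR1 was 1.08 for C5AR1 and 0.39 for the sum, wider than for CXCR2 with RUFY4. The sum fell on day 28 in healthy cattle (log2 -0.64, SE 0.16, adjusted p = 0.00258, lower in 11 of 12) and in BRD cattle (log2 -0.60, SE 0.15, adjusted p = 0.00299, lower in 12 of 14). This sum was likewise chosen after its values were seen, and which of its genes carried the fall was not tested. With both sums in place of the 2 single genes, 11 and 22 of the 28 combinations were lower in healthy and BRD cattle.

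Most genes of alarmin sensing were lower on day 28. Of 8 tested, 2, 7, 2 and 3 were lower in healthy cattle on days 13, 28, 45 and 60, when 4.97%, 10.22%, 4.88% and 6.55% of all genes were, and 1 was higher on day 28. In BRD cattle 6, 6, 3 and 5 of the 8 were lower, against 9.15%, 11.14%, 11.49% and 10.36% of all genes. CD14, the co-receptor of TLR4, fell by 1.13 on the log2 scale in healthy cattle and by 1.39 in BRD cattle on day 28 (SE 0.17 in healthy cattle, adjusted p = 8.35e-07 and 3.73e-10). TLR4 itself fell by 0.67 and 0.94 on that day (adjusted p = 0.00214 and 4.67e-06). CD36, a scavenger receptor that S100A8 and S100A9 can bind, fell by 3.59 and 3.30, from a low level (median 0.212 CPM over all libraries).

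Of 8 other receptors for chemoattractants, 3, 5, 1 and 2 were lower in healthy cattle on days 13, 28, 45 and 60. Of all genes 4.97%, 10.22%, 4.88% and 6.55% were lower. In BRD cattle 2, 5, 3 and 1 of the 8 were lower, against 9.15%, 11.14%, 11.49% and 10.36% of all genes. In healthy cattle 1 was higher on each day, and in BRD cattle 1 was higher on days 28 and 45. CXCR4, which retains neutrophils in bone marrow, fell on day 28 in healthy cattle (log2 -1.62) and in BRD cattle (log2 -1.30), and it was lower on all 4 days in both groups (adjusted p up to 0.0250). PTAFR, the receptor for platelet activating factor, fell by 0.84 and 0.66 on day 28, and C5AR2, the second C5a receptor, by 0.81 and 0.65. Of 9 tested ligands, 0, 2, 1 and 1 were higher in healthy cattle on days 13, 28, 45 and 60, and 5, 3, 4 and 3 in BRD cattle. On each day 1 was lower in each group. Of all 17853 genes, 1865, 3923, 1648 and 2246 passed in either direction in healthy cattle and 3540, 3635, 3934 and 3279 in BRD cattle. ANXA1, whose product acts on formyl peptide receptors, fell by 0.90 and 1.23 on day 28. CCL3, a ligand of CCR1, rose on that day by 0.59 and 1.06. GRO1, a CXCR2 ligand matched for CXCL1, rose in BRD cattle by 1.14 on day 13 and 0.97 on day 60 (median level 0.507 CPM).

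Of 11 other S100 genes tested, 2 were lower and 1 higher on day 28 in healthy cattle, and 3 were lower in BRD cattle, when 10.22% and 11.14% of all genes were lower. S100A11 fell by 0.48 and 0.61 on that day and S100A10 by 0.45 and 0.32, less than the alarmins did in BRD cattle. On days 13, 45 and 60, 2, 0 and 1 of the 11 were lower in healthy cattle and 2, 1 and 1 in BRD cattle. Among 10 genes of granulopoiesis and its cytokines, 4, 5, 2 and 3 were lower in healthy cattle on days 13, 28, 45 and 60. In BRD cattle 4, 5, 2 and 4 were lower, and 1 was higher, on day 45 in healthy cattle. The shares of all genes given with the receptors apply here too. On day 28 IL1R2, the interleukin 1 decoy receptor, fell by 1.76 and 1.55, and CEBPA, a myeloid transcription factor, by 0.50 and 0.56. Among 13 adhesion and migration genes, 2 were lower and 2 higher in healthy cattle on day 28, and 4 lower and 2 higher in BRD cattle. On that day CD44, a receptor for hyaluronan, fell by 0.68 and 0.44, and PECAM1 rose by 1.14 in healthy cattle. On day 45, 1 was lower and 2 higher in healthy cattle, and 0 lower and 3 higher in BRD cattle. Of 18 genes of receptor signalling and the oxidase, 2 were lower and 1 higher in healthy cattle and 7 were lower in BRD cattle on day 28, so the healthy count was near the share of all genes. On that day RGS2, a brake on receptor signalling, fell by 0.94 and 0.91. On day 45, 2 of the 18 were lower and 4 higher in healthy cattle, and 4 lower and 3 higher in BRD cattle. With treatment in the model, no gene of these lists passed for a difference between BRD and healthy cattle, in level or in change, and the lists were not read in the model with pen.

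Markers of blood cell types were read beside these changes. Over all 17853 genes, 1865, 3923, 1648 and 2246 passed in either direction in healthy cattle on days 13, 28, 45 and 60. Of these, 887, 1825, 872 and 1169 were lower than on day 0. In BRD cattle 3540, 3635, 3934 and 3279 passed, of which 1634, 1988, 2052 and 1849 were lower. The summed neutrophil markers had medians of 1460, 1455, 1277, 1398 and 1392 CPM in healthy cattle and of 1629, 1495, 1500, 1674 and 1593 CPM in BRD cattle over the 5 days. The highest genes in this sum were MMP25, VNN2 and FCGR3A (medians 818.8, 285.5 and 226.7 CPM over all libraries). Opposite changes of its genes can cancel in it. Of 7 tested neutrophil markers, FCGR3A was higher on all 4 later days in both groups, and MGAM and VNN2 were lower on day 28. The summed monocyte markers ran from 820.0 to 3145 CPM on day 0 (median 1331) and from 751.5 to 1731 CPM on day 28 (median 908.3) in healthy cattle, and from 637.3 to 2899 CPM (median 1322) and 660.4 to 1776 CPM (median 915.3) in BRD cattle. Of 7 monocyte markers, 4 were lower and 1 higher on each later day, except day 60 in BRD cattle with 6 lower and 1 higher. In BRD cattle on day 28 the higher one was CX3CR1 (log2 0.77, adjusted p = 2.76e-07 by edgeR). In healthy cattle the 4 were lower on day 45 too, when no alarmin passed. CD14 is in this list and among the genes of alarmin sensing. The part of monocytes in the falls of the alarmins was not tested. Immature neutrophil markers were low in sum (medians of 3.72 to 7.71 CPM, with PRTN3 at 0 in 94 libraries), and in BRD cattle 2, 0, 3 and 2 of 4 tested were higher on days 13, 28, 45 and 60, with none lower. Among them MPO, myeloperoxidase of neutrophil granules, rose by 1.49 on the log2 scale on day 45 in BRD cattle (SE 0.35, adjusted p = 0.00131), while the alarmins fell. In healthy cattle 1 of the 4 was higher, on day 45.

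Of 7 eosinophil and basophil markers, 5, 2, 6 and 6 were higher in BRD cattle on days 13, 28, 45 and 60 and none was lower, and 2, 2, 2 and 1 were higher in healthy cattle, with 1 lower on days 13 and 28. The counts over all genes given with the neutrophil markers apply to the markers here too. Of 5 NK cell markers, 3, 3, 2 and 0 were lower in healthy cattle on these days, and in BRD cattle 1 was lower on days 13 and 28 and 1 was higher on days 13, 45 and 60. None of 8 T cell markers passed, and of 7 B cell markers up to 2 were higher and none was lower. Of 5 platelet markers, 2, 4, 0 and 2 were higher in healthy cattle and 4, 3, 0 and 1 in BRD cattle. Of 8 markers of red cell precursors, 5 were higher on each day in healthy cattle and 8, 4, 8 and 4 in BRD cattle, and their summed level went from a median of 187.5 CPM on day 0 to 3848 CPM on day 13 in healthy cattle and from 245.3 to 7366 CPM in BRD cattle. The part of these markers in the values above was not tested.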

How the data were processed

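Whole blood was drawn into Tempus tubes, and stranded mRNA libraries were sequenced as read pairs. The authors used Trimmomatic 0.39 for trimming, HISAT2 for mapping (assembly ARS-UCD1.3), StringTie 2.2.0 for transcript assembly and prepDE for the counts. The deposited values are counts per gene, not normalized, for 32395 genes and 129 libraries, and they are computed from coverage and not tallied read by read. Groups were taken from the labels of each sample.

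Counts were analysed in R 4.3.3 with edgeR 4.0.16 (TMM factors, a common dispersion estimated on 2000 genes, quasi-likelihood F-tests, Benjamini-Hochberg adjustment over the 17853 genes kept by filterByExpr for disease and day, threshold 0.10). BRD was compared with healthy cattle, and treatments with each other, between animals on each day, in a fit over all days with no animal term. Changes from day 0 had animal as a block, since the labels tie the libraries to animals (correlation within animals 0.348 by voom). The biological coefficient of variation was 38.2% between animals and 27.4% with the block. With 31613545 counts or more per library, counting error is small beside the spread between animals, which are the replicates.

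Alternatives were DESeq2 1.42.0, limma 3.58.1 with voom, RLE factors, other filters (26992 or 14182 genes), a trended dispersion, a threshold of 0.05, each group or day alone, models without the treatment, disease or animal term, pen in place of treatment, removal of the library of animal 40 at day 60, and fits lacking 1 animal each (1 in 8 genes for the block and pen fits). Sums of neighbouring genes, and pen without animal 43, were chosen after seeing the data. On simulated data, 72 of 100 genes changed at log2 1 and 5 of 100 changed at log2 0.5 were recovered between groups on day 13, with 8 false calls of 85. With the block, for BRD cattle on day 13, 92 and 31 of 100 were recovered, with 14 false calls of 137. The rule for named genes was every chosen gene, and for other lists the called genes of smallest p. Members and lists were chosen with earlier results of these data known. Plots were made in matplotlib 3.10.9 under Python 3.11.15.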

Additional observations from a re-analysis of the deposited data

Results flagged for a closer look

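Of 168 groups of 4 to 10 libraries tested for a library far from the others, 12 had one, and chance gives about 1 in 20. BRD INR animal 43 on day 0 held 1061 CPM of S100A8 (others of its group 153.2 to 443.9), 3085 CPM of S100A9 (others 334.3 to 1129) and 4413 CPM of S100A12 (others 582.9 to 1855). Healthy COMBO animal 6 on day 0 held 1050 CPM of S100A9 (others 369.5 to 461.9) and 2031 CPM of S100A12 (others 738.8 to 944.2). BRD AAC animal 21 on day 13 held 614.4 CPM of S100A9 (others 345.1 to 379.6), 1289 CPM of S100A12 (others 666.0 to 698.6) and 276.2 CPM of C5AR1 (others 94.1 to 112.3).

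Healthy INR animal 10 was the lowest of its group on day 60, with 331.7 CPM of S100A12 (others 497.9 to 519.2). CXCR1 stood at 239.2 CPM in BRD INR animal 40 on day 13 (others 58.6 to 134.7). CXCR2 stood at 127.3 CPM in BRD INR animal 23 on day 45 (others 14.7 to 57.8). CXCL8 stood at 14.6 CPM in healthy INR animal 50 on day 45 (others 5.09 to 6.40). No difference in change from day 0 between BRD and healthy cattle passed in its own test.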

How the results depend on the processing

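Of the calls counted over the 7 genes and days, those between treatments, of the changes in BRD cattle and of the differences in change were within 1.5 times the reported count under every alternative run. The count of BRD against healthy calls rose from 0 to 3 with pen in place of treatment, and was 3 with pen and without animal 43, on day 0 each time. The healthy count of 9 lay between 5 and 11 when each animal was left out, with 5 without animal 6, and the BRD count of 18 lay between 16 and 18. Without the animal block, that is with no pairing of the libraries of an animal, the counts were 7 in healthy and 13 in BRD cattle, and the differences in change stayed at 0. By DESeq2 the counts were 9 and 18, and by voom 10 and 15. Over all genes on day 0, BRD differed from healthy cattle in 1 gene as reported, in 9 by DESeq2, in 7 without the treatment term and in 675 with pen. The calls of CXCR1 in BRD cattle on days 13 and 60 and of CXCL8 and S100A12 in healthy cattle on days 45 and 13 were the ones most often lost, at adjusted p values of 0.103 to 0.656 under at least 1 of the filters, RLE, voom, group-alone, block or leave-one-out alternatives. No called change turned its direction. Changes that did not pass turned sign under some alternatives, among them CXCR2 in BRD cattle on day 13 (log2 0.35 alone and -0.47 with RUFY4 added) and C5AR1 in healthy cattle on days 13, 45 and 60 with DHX34 added. In simulated data of the same size with a common dispersion for all genes, changes of log2 0.5 were mostly missed. Depth and the number of animals were not varied. Whether treatment of sick cattle, date of illness or cell makeup moved these levels was not tested.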
